A study of Mus musculus with 32 samples.

Results

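Intergenic accessible regions lying 10 to 500 kb from the nearest transcription start site (TSS) made up 7775 of the 16174 peaks that the study listed in 6 groups of mouse orbitofrontal cortex (OFC) astrocytes. Accessibility was measured by ATAC-seq, in which a transposase cuts and tags DNA that is not wrapped tightly, and a peak is a stretch where the tags pile up above the local background. An intergenic peak was counted here when it was on chromosomes 1 to 19, was annotated as intergenic at its centre, had its centre more than 10 kb and at most 500 kb from a TSS, and was narrower than 500 kb. The members were thus chosen by measured values of the peaks (place, annotation, distance and width), so the distance and width ranges themselves are a description and not a finding. The GFP control list held 3319 such peaks, the GFP CSDS list 1975, the Zbt-KD control list 723, the Zbt-KD CSDS list 638, the GFP SSDS list 621 and the ZBT-OE SSDS list 499.

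The 32 samples came from 2 experiments on male C57BL/6J mice aged 8 weeks that received AAV6 virus in both OFC, with expression driven by the GFAP promoter. In the knockdown experiment the virus carried either a microRNA against Zbtb7a (Zbt-KD) or a negative microRNA with GFP (GFP), and mice were kept as controls or underwent 10 days of chronic social defeat stress (CSDS), with 5 samples in each of these 4 groups. In the overexpression experiment the virus carried human ZBTB7A (ZBT-OE) or GFP alone, with 6 samples each; the stress that gives these groups their names, a subthreshold defeat (SSDS) of 1 day, is taken from the study's methods, since the sample labels state no stress for them. All samples pooled tissue of 3 mice and were enriched for cells carrying the astrocyte surface antigen ACSA-2, so cells that took up no virus and other cells that came through the enrichment are part of every sample. The authors called peaks once per group. No value per sample was at hand, no replicate test could be made, and all intervals below cover counting error over peaks only.

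Intergenic DNA far from genes holds enhancers, which act on promoters over long distances by looping, and insulators that bound such loops. A large share of it is made of transposable elements, among them the LINE-1 (L1) retrotransposons and the LTR elements derived from ancient retroviruses, which in most cells are kept closed by repressive histone marks and DNA methylation. ZBTB7A is a zinc finger transcription factor that binds GC-rich DNA. The gene nearest to an intergenic peak is a label of position, since such a peak may act on another gene or on none.

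The DNA beneath some of the strongest intergenic peaks that were present in 1 list of a pair and absent from the other is shown first, because it differed in how often it recurs in the genome. Each sequence is the central 200 bases of the peak on the forward strand of GRCm38.p6 (RefSeq, the assembly also named mm10), with CG pairs, the sites of DNA methylation, in capitals. The Nup35 peak, named for a gene of the nuclear pore, was listed in the GFP control group at chr2:80812203-80817053 with a fold enrichment over local background of 4.01, and its printed bases were chr2:80814528-80814727 in an L1Md_A element. The 1190028D05Rik peak was listed in the GFP CSDS group at chr8:52303852-52307941 with a fold enrichment of 4.71, and its centre (chr8:52305796-52305995) was an L1Md_T element. The Cd200 peak, near the gene of a surface protein that restrains microglia, was listed in the Zbt-KD CSDS group at chr16:45347247-45362072 with a fold enrichment of 2.57 and had an L1Md_F3 element at its centre (chr16:45354559-45354758). The Gm8579 peak was listed in the GFP control group at chr6:3200770-3201559 with a fold enrichment of 5.81 and lay in ribosomal RNA sequence (chr6:3201064-3201263). The Ly6c2 peak, near the gene of a surface protein of myeloid cells, was listed in the GFP control group at chr15:75086225-75086964 with a fold enrichment of 3.36 and no annotated repeat at its centre (chr15:75086494-75086693). The Mir6546 peak was listed in the GFP CSDS group at chr1:171076173-171079415 with a fold enrichment of 2.63, also without an annotated repeat (chr1:171077694-171077893).
Nup35: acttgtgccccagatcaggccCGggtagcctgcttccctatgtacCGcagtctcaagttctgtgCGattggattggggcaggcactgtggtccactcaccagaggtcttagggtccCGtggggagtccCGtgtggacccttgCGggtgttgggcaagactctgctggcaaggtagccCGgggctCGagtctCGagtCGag
1190028D05Rik: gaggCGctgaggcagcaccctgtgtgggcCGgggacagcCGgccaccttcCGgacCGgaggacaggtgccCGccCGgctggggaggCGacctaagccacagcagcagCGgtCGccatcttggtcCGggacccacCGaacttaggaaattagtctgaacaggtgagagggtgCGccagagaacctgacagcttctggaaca
Cd200: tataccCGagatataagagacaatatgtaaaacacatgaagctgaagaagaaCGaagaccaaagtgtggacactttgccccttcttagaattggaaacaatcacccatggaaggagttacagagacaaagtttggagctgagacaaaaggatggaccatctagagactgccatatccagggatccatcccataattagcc
Gm8579: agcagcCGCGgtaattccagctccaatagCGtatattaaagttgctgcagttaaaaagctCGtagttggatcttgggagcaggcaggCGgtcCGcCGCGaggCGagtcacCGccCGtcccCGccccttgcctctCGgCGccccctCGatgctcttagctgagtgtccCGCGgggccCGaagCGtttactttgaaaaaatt
Ly6c2: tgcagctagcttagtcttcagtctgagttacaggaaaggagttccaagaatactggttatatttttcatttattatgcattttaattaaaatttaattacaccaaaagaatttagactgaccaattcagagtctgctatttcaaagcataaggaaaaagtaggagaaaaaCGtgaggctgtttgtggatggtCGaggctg
Mir6546: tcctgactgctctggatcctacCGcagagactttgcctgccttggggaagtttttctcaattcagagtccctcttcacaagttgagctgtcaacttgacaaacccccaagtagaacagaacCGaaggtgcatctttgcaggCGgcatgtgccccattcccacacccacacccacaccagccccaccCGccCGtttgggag

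The 3 L1 sequences shown recurred most, though not every L1 peak did: the central 31 bases of the Timm8a1 peak, in an older Lx element, were found 1 time. The central 31 bases were found 1270 times in the assembly for the Nup35 peak, 1924 times for the 1190028D05Rik peak and 2414 times for the Cd200 peak. The same count was 2 for the Gm8579 and Ly6c2 peaks and 3 for the Mir6546 peak. The study kept only reads that aligned to a single place, so reads from the middle of the 3 L1 peaks could be placed only where a base differed between copies or where the read pair reached unique flanking DNA. The Gm8579 sequence held 19 CG pairs in 200 bases and the 1190028D05Rik sequence 13, whereas the Cd200 and Ly6c2 sequences held 2 each.

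The lists differed much more in how finely the same amount of DNA was cut into peaks than in how much intergenic DNA they covered. The 3319 peaks of the GFP control group covered 64.5 Mb, the 1975 of the GFP CSDS group 71.9 Mb, the 723 of the Zbt-KD control group 69.5 Mb, the 638 of the Zbt-KD CSDS group 69.9 Mb, the 621 of the GFP SSDS group 82.5 Mb and the 499 of the ZBT-OE SSDS group 74.8 Mb. The median width rose in the same order, from 1959 bp and 4038 bp in the GFP control and GFP CSDS lists through 29323 bp and 33603 bp in the Zbt-KD control and Zbt-KD CSDS lists to 53866 bp and 88490 bp in the GFP SSDS and ZBT-OE SSDS lists. The narrowest intergenic peak measured 687 bp, 1174 bp, 6425 bp, 6507 bp, 8484 bp and 20269 bp in these lists. The list with the fewest intergenic peaks was therefore also the list with the widest ones. Intergenic peaks formed 61.3%, 57.9%, 55.5%, 53.9%, 48.4% and 41.6% of the autosomal peaks in the same order of lists.

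**Figure D1:**
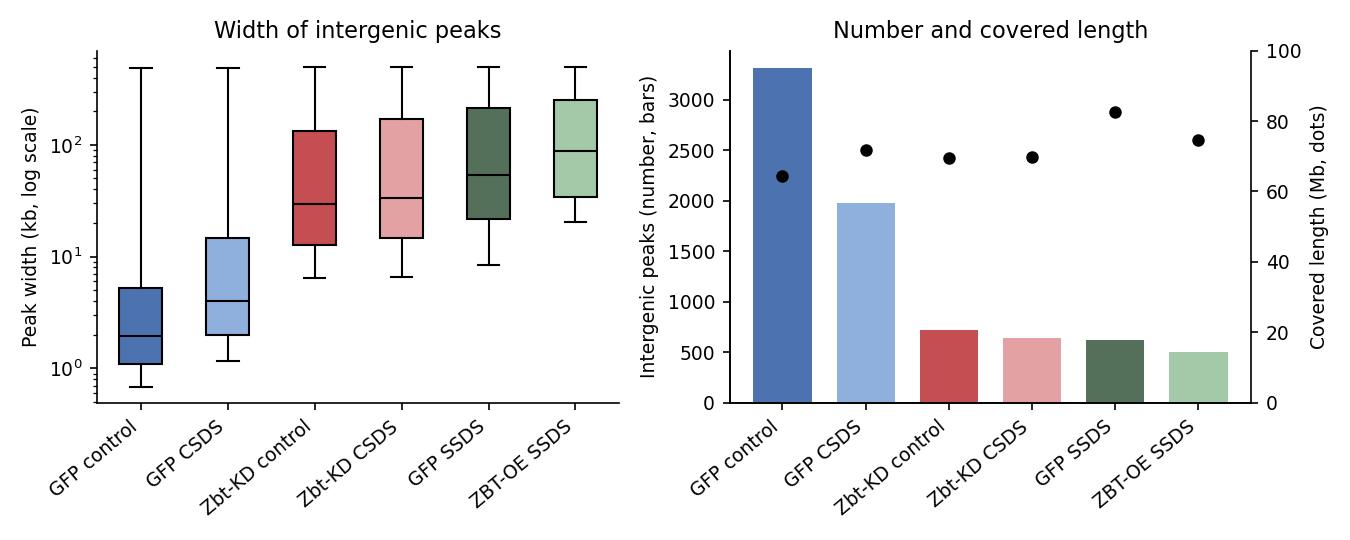
Width of intergenic peaks (left, kb on a log scale; boxes show the quartiles and median, whiskers the narrowest and widest peak) and their number (right, bars) with the covered length in Mb (right, dots, own axis) in each of the 6 lists. The number fell from 3319 to 499 from left to right while the median width rose from 1959 to 88490 bp and the covered length stayed between 64.5 and 82.5 Mb.

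Within each list most intergenic peaks were weak. The median fold enrichment was 1.68 in the GFP control and GFP CSDS lists, 1.77 and 1.79 in the Zbt-KD control and Zbt-KD CSDS lists, 1.89 in the GFP SSDS list and 2.12 in the ZBT-OE SSDS list; fold enrichments are relative to each list's own background and were not compared between lists. The strongest intergenic peak of the GFP control list had a fold enrichment of 8.88 and that of the GFP CSDS list 8.53, and both lay near Tcp10c, a gene of the t-complex. In the ZBT-OE SSDS list the strongest was near Synb (8.30), which encodes a placental fusion protein, and in the Zbt-KD control list it was near Zscan4c (7.08), a factor of early embryos. In the Zbt-KD CSDS and GFP SSDS lists the strongest peak lay near 4930442J19Rik, with 6.57 and 7.21.

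The ratio of the number of intergenic peaks was below 1 in all 5 contrasts between groups. It was 0.595 (95% exact interval 0.563 to 0.629) for GFP CSDS against GFP control, 0.218 (0.201 to 0.236) for Zbt-KD control against GFP control, 0.323 (0.295 to 0.353) for Zbt-KD CSDS against GFP CSDS, 0.882 (0.792 to 0.983) for Zbt-KD CSDS against Zbt-KD control and 0.804 (0.713 to 0.905) for ZBT-OE SSDS against GFP SSDS. These contrasts share lists within the knockdown experiment and are not independent of each other. The direction depended on the width scale. When autosomal peaks up to 20364 bp apart were merged in every list and merged regions narrower than 20269 bp were dropped, the lists held 275, 314, 355, 337, 435 and 498 intergenic regions in the same order. The ratio was then 1.14 (0.968 to 1.35) for GFP CSDS against GFP control, 1.29 (1.10 to 1.52) for Zbt-KD control against GFP control, 1.07 (0.918 to 1.26) for Zbt-KD CSDS against GFP CSDS and 1.14 (1.005 to 1.30) for ZBT-OE SSDS against GFP SSDS. The value of 4 of the 5 ratios changed side, and the intervals of 2 of these 4 included 1.

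The centres of intergenic peaks lay farther from a TSS than the positions of the intergenic genome within the same limits. Positions spaced 1000 bp along the autosomes that lay outside curated RefSeq transcripts and within the same distance limits numbered 1053853, or 44.0% of all autosomal positions read, with a median distance to a TSS of 84.2 kb. The median distance of intergenic peaks was 164 kb in the GFP control list, 135 kb in the GFP CSDS list, 149 and 152 kb in the unstressed and stressed Zbt-KD lists, 135 kb in the GFP SSDS list and 99.4 kb in ZBT-OE SSDS. Counted by bases, intergenic peaks covered 3.07% of the intergenic positions 10 to 50 kb from a TSS and 7.78% of those 200 to 500 kb away in the GFP control list. The same rise with distance was seen in the other 5 lists, from between 2.95% and 3.84% near genes to between 8.55% and 10.0% at 200 to 500 kb. Positions under peaks centred within 10 kb of a TSS, or under peaks annotated otherwise, counted as uncovered. The rise may thus come in part from the definition of the peaks, which was not tested. Coverage also fell with GC content, from 6.57% in the intergenic positions with the lowest GC content to 3.14% in those with the highest (4 classes of about equal size) in the GFP control list, and from 7.79% to 3.20% in the ZBT-OE SSDS list.

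The side of the gene was nearly the same in all 6 lists. The share of intergenic peaks upstream of the nearest gene was 57.2% in the GFP control list (95% Wilson interval 55.6 to 58.9), 60.5% in GFP CSDS (58.3 to 62.6), 60.2% in Zbt-KD control (56.6 to 63.7), 56.4% in Zbt-KD CSDS (52.6 to 60.2), 59.4% in GFP SSDS (55.5 to 63.2) and 58.7% in ZBT-OE SSDS (54.3 to 63.0). Upstream positions made up 57.0% of the intergenic genome within the same limits, a value inside the interval of every list but GFP CSDS, and those 6 intervals overlapped one another. Intronic peaks within the same distance and width limits were upstream of the nearest TSS in only 15% to 22.0% of cases.

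The fall of the upstream share with distance was smaller in the peaks than in the genome. In the intergenic genome the upstream share fell from 65.5% at 10 to 50 kb from a TSS to 48.7% at 200 to 500 kb. Among intergenic peaks 200 to 500 kb from a TSS it was 56.8% in GFP control (54.2 to 59.3, n = 1446), 58.1% in GFP CSDS (54.5 to 61.5, n = 751), 59.9% in Zbt-KD control (54.3 to 65.3, n = 297), 55.7% in Zbt-KD CSDS (49.7 to 61.6, n = 262), 58.7% in GFP SSDS (52.2 to 65, n = 223) and 59.3% in ZBT-OE SSDS (51.6 to 66.5, n = 162). All 6 lower bounds were above the 48.7% of the intergenic genome. By bases the upstream share at this distance was 52.7% in the GFP control list and 53.3% to 58.4% in the others.

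**Figure D2:**
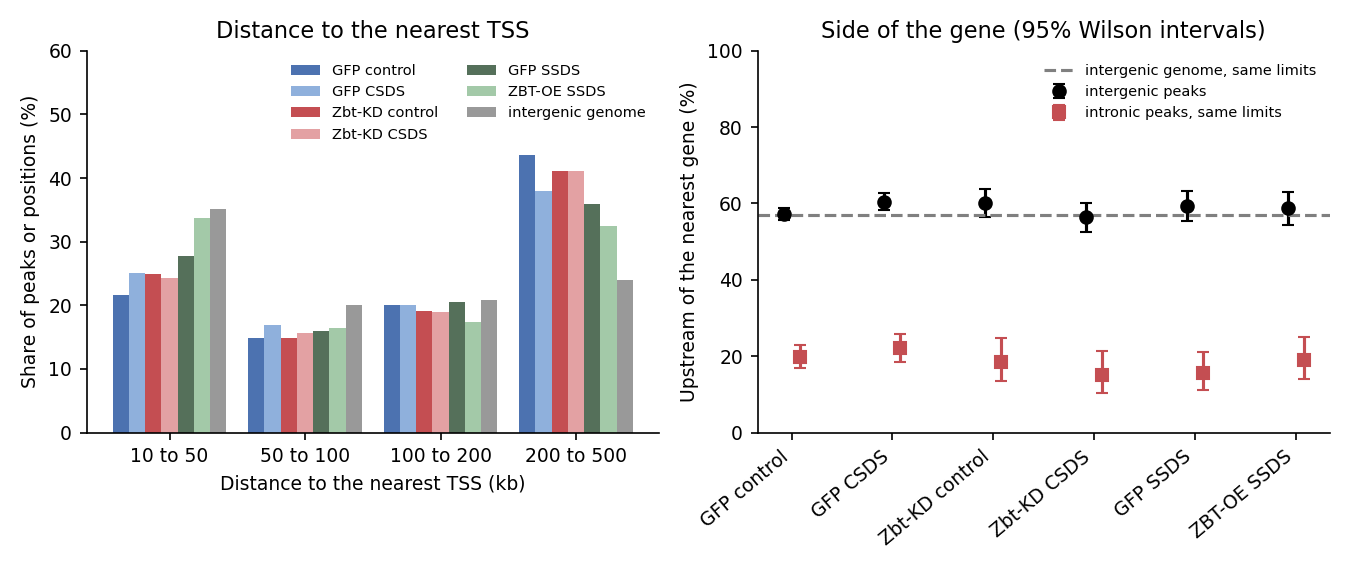
Left, share of intergenic peaks of each list, and of intergenic genome positions, in 4 classes of distance to the nearest TSS (kb). Right, share upstream of the nearest gene for intergenic peaks (circles) and for intronic peaks within the same limits (squares), with 95% Wilson intervals over peaks and the intergenic genome as a dashed line at 57.0%. The intergenic genome had more positions at 10 to 50 kb and fewer at 200 to 500 kb than the peaks of any list, while the circles sat near the dashed line.

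Because the peaks were wide, a centre far from a TSS did not mean that the whole peak was. The listed TSS lay inside the span of 89 intergenic peaks in the GFP control list, 105 in GFP CSDS, 123 in Zbt-KD control, 107 in Zbt-KD CSDS, 143 in GFP SSDS and 175 in ZBT-OE SSDS, or 2.68% of the peaks in the first and 35.1% in the last. By the curated annotation, 34.1% of the ZBT-OE SSDS intergenic peaks (30.0 to 38.3) held the start of at least 1 protein-coding gene, against 21.6% in GFP SSDS (18.5 to 25.0) and 2.74% in GFP control (2.24 to 3.35). A peak of 365560 bp near Krtap16-3, a hair keratin-associated gene, held the starts of 20 protein-coding genes in the ZBT-OE SSDS list.

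Peaks gathered at few genes in the finely cut lists. The 3319 peaks of the GFP control list had 662 nearest genes, of which 215 had 5 or more peaks and accounted for 76.6% of the list. The 499 peaks of the ZBT-OE SSDS list had 445 nearest genes and none of them had 5. Over all lists there were 1102 nearest genes, 382 of them (34.7%) in a single list and 169 (15.3%) in all 6. The genes with the most peaks were mostly noncoding. Mir6379, a microRNA gene on chromosome 3, had 40, 15, 1, 5, 6 and 0 peaks in the order of lists used above, and all 67 lay upstream of it. 2610316D01Rik, on the same chromosome, had 43, 13, 1, 1, 0 and 0, and all 58 lay downstream. Gm20268 on chromosome 1 had 26, 15, 4, 7, 5 and 3, Rprl1 on chromosome 6 had 24, 14, 5, 7, 3 and 3, and Gm10745 on chromosome 3 had 30, 13, 4, 3, 3 and 1. The other 5 of the top 10 were Gm30731 with 54 peaks in all lists together, 8430436N08Rik with 51, Phf3 with 50, Mir6342 with 49 and 5730507C01Rik with 49. Of the 10 only Phf3, which encodes a PHD finger protein, and 5730507C01Rik were annotated as protein-coding.

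Sharing between lists is shown as the percentage of intergenic peaks of a list that touched any autosomal peak of the other list by at least 1 bp. It ran from 51.2% of GFP CSDS peaks found in the GFP control list to 82.1% of Zbt-KD CSDS peaks found in the GFP SSDS list. By bases the agreement was higher in 27 of the 30 ordered pairs; in the GFP control list, for example, between 91.1% and 94.4% of the intergenic peak bases were inside peaks of each other list. Sharing rose with width. Of the GFP control peaks narrower than 2000 bp, 62.4% were also in the GFP CSDS list, against 93.3% of those 20 to 100 kb wide and all 172 of those of 100 kb or more.

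**Figure D3:**
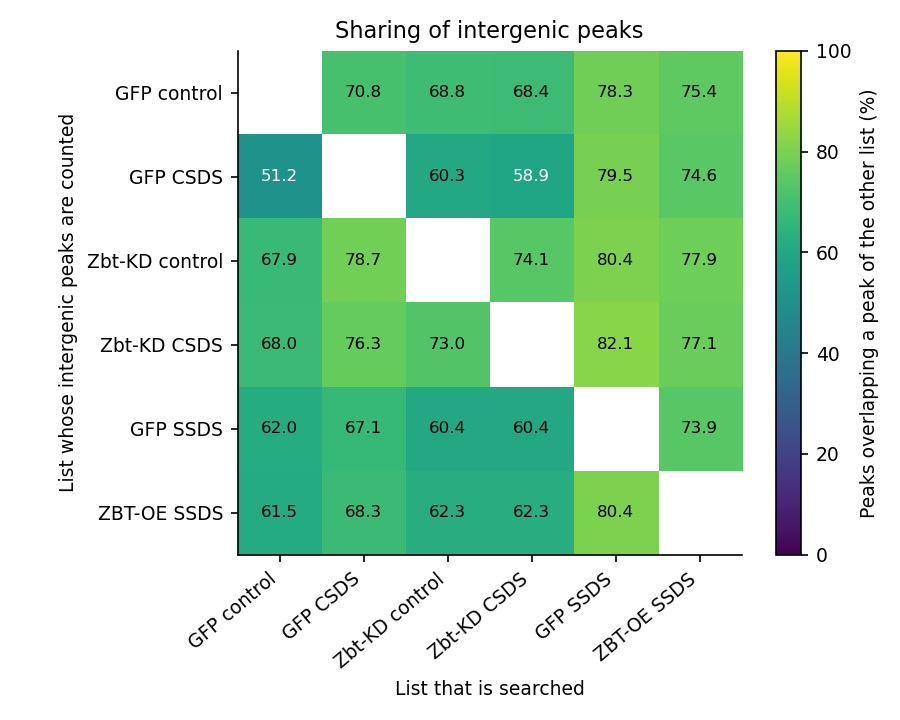
Share of the intergenic peaks of each list (rows) that overlapped any autosomal peak of another list (columns) by at least 1 bp, in percent, as printed in the cells. The lowest value, 51.2%, was for GFP CSDS peaks searched in the GFP control list, and the highest, 82.1%, for Zbt-KD CSDS peaks searched in the GFP SSDS list.

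In the 5 contrasts, an intergenic peak of the treated list that touched no autosomal peak of the reference list is called opened, and one of the reference list that touched none of the treated list closed. Both words stand for presence in a called list. For GFP CSDS against GFP control, which asks what chronic stress changed, 963 of 1975 peaks (48.8%) opened and 968 of 3319 (29.2%) closed, beside 48.2% and 29.2% of all autosomal peaks. For Zbt-KD control against GFP control 232 of 723 (32.1%) opened and 1037 of 3319 (31.2%) closed, beside 31% and 28.8%. For Zbt-KD CSDS against GFP CSDS 151 of 638 (23.7%) opened and 811 of 1975 (41.1%) closed, beside 22% and 38.3%. For Zbt-KD CSDS against Zbt-KD control 172 of 638 (27.0%) opened and 187 of 723 (25.9%) closed, beside 27.6% and 24.3%. For ZBT-OE SSDS against GFP SSDS 98 of 499 (19.6%) opened and 162 of 621 (26.1%) closed, beside 31.4% and 27.7%.

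In 7 of these 10 shares the difference between intergenic peaks and the other autosomal peaks had a 95% Newcombe interval that included 0. Closing was more frequent among intergenic peaks by 6.40 percentage points (3.95 to 8.81) for Zbt-KD control against GFP control and by 6.50 (3.20 to 9.76) for Zbt-KD CSDS against GFP CSDS. Opening under ZBT-OE SSDS was less frequent among intergenic peaks than among the other autosomal peaks, of which 279 of 700 (39.9%) opened, a difference of -20.2 points (-25.1 to -15.1).

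Many closed peaks were narrower than any peak of the list in which they were missing. For Zbt-KD control against GFP control, 940 of the 1037 closed peaks were narrower than the narrowest autosomal Zbt-KD control peak (6425 bp). The corresponding counts were 635 of 811 for Zbt-KD CSDS against GFP CSDS, 92 of 162 for ZBT-OE SSDS against GFP SSDS, 377 of 968 for GFP CSDS against GFP control and 6 of 187 for Zbt-KD CSDS against Zbt-KD control. No opened peak was narrower than the other list's narrowest peak in any contrast. Among intergenic peaks at least as wide as that floor, 13.5% closed (11.2 to 16.2, n = 719) for Zbt-KD control against GFP control, 23.6% (20.7 to 26.7, n = 747) for Zbt-KD CSDS against GFP CSDS, 14.5% (11.7 to 17.9, n = 482) for ZBT-OE SSDS against GFP SSDS and 24.8% (23.1 to 26.6, n = 2380) for GFP CSDS against GFP control, beside 11.2%, 20.0%, 14.0% and 24.5% of all autosomal peaks of such width.

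**Figure D4:**
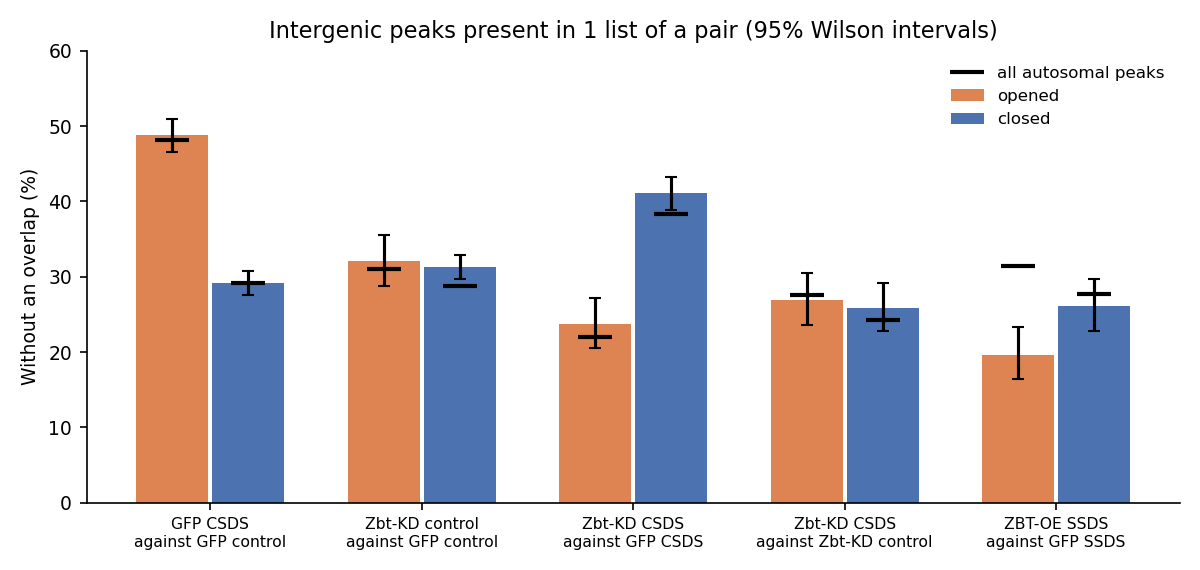
Share of intergenic peaks without an overlapping peak in the other list of the pair, in percent, for the treated list (opened) and the reference list (closed) of each contrast, with 95% Wilson intervals over peaks. Black marks give the same share over all autosomal peaks. The mark lay inside the interval in 7 of the 10 bars; the opened share of ZBT-OE SSDS was 19.6% beside a mark at 31.4%.

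Chronic stress in GFP mice gave opened and closed sets of nearly the same number, which differed in LINE share and distance. Among peaks at least as wide as the 1174 bp floor, 591 closed and 963 opened. LINE elements lay at the centre of 25.2% of opened and 37.4% of closed peaks, a difference of -12.2 points (-16.2 to -8.04). In the whole lists the LINE share was 30.1% in GFP CSDS and 35.5% in GFP control. Opened peaks were within 100 kb of a TSS in 44.4% of cases and closed ones in 37.0%, a difference of 7.46 points (3.08 to 11.8). The strongest opened peak (fold enrichment 2.79, 55973 bp) lay 402 kb upstream of 1700034K08Rik, and the next 2 were the Mir6546 peaks 13.1 and 17.5 kb upstream of that gene, which overlapped a peak in every other list but GFP control. The strongest closed peak was the ribosomal RNA peak near Gm8579. It was matched by a peak of 22305 bp in the Zbt-KD control list with a fold enrichment of 6.21, and by none in the other 4 lists. The next were a peak of 732 bp with a fold enrichment of 2.85 near Gm14496, found in no other list, and one of 2393 bp with 2.41 near 4931420L22Rik, with an L1Md_T element at its centre. The Gm8579 peak of 790 bp and the Gm14496 peak were narrower than the narrowest autosomal GFP CSDS peak (1174 bp). The repeat, distance and gene group shares of this contrast were taken over all opened and closed peaks and were not repeated above the floor.

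Some gene groups differed in share between the opened and closed peaks of this contrast. Genes with symbols of developmental transcription factors were nearest to 32 opened (3.32%) and 0 closed peaks, beside 1.17% of all autosomal GFP CSDS and 0.388% of GFP control peaks. They were Pou5f1-rs5, Tbx15 and Tbx18 of the T-box family and Zic1 and Zic4 of the cerebellar zinc finger family. Of the 34 GFP CSDS peaks of this group, 19 lay by Pou5f1-rs5 alone. The group was set by the start of the symbol, and whether Pou5f1-rs5 encodes a factor was not checked. Neural adhesion and guidance genes were nearest to 9 opened peaks (0.935%, beside 3.87% of all autosomal GFP CSDS peaks) and 41 closed peaks (4.24%, beside 4.65% of GFP control ones), and the opened ones lay by Astn2 and Cntnap2. In the GFP control list these genes held 92 peaks, among them 26 by Cntn5 and 21 by Cntnap5a, which encode contactins and contactin-associated proteins of neuron contacts, and 17 by Epha6, an ephrin receptor. Olfactory receptor genes were nearest to 12 opened (1.25%) and 35 closed peaks (3.62%), beside 2.79% of all autosomal GFP CSDS and 3.69% of GFP control peaks. For vomeronasal receptor genes there were 13 (1.35%) and 32 (3.31%), beside 2.38% and 2.62%. For microRNA and small nucleolar RNA genes there were 48 (4.98%) and 88 (9.09%), beside 3.96% and 4.30%. Of those 88 closed peaks, 35 lay by Mir6379 alone. The closed olfactory share was thus near that of its whole list, and the opened small RNA share was not below its own. As shares of the opened and closed sets, the differences were 3.32 points (2.29 to 4.65) for the developmental factors, -3.30 (-4.83 to -1.92) for the adhesion genes, -2.37 (-3.84 to -1.01) for olfactory receptors, -1.96 (-3.39 to -0.612) for vomeronasal receptors and -4.11 (-6.42 to -1.83) for the small RNAs. Many of these peaks share a gene and a stretch of DNA and are not independent, and peaks of 1 gene can decide a group's count.

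Zbtb7a knockdown without stress gave 1037 closed and 232 opened peaks, the largest excess of closed peaks in number among the 5 contrasts, but among peaks at least as wide as the floor 97 closed and 232 opened. LTR elements lay at the centre of 11.6% of opened and 19.3% of closed peaks, a difference of -7.65 points (-12.0 to -2.36), and LINE elements at 33.2% and 38.4% (-5.19, -11.7 to 1.74). The strongest opened peaks lay near 2610008E11Rik (fold enrichment 2.50, 51996 bp), Lig1 (2.29, 57860 bp), the DNA ligase that joins replicated strands, and Cpox (2.20, 53850 bp), an enzyme of haem synthesis. The strongest closed peaks were the Nup35 and Ly6c2 peaks whose sequences are given above, of 4851 and 740 bp, and a GFP control peak of 3781 bp near 1190028D05Rik inside the span of the GFP CSDS peak described above, all narrower than the 6425 bp floor. Neural adhesion and guidance genes were nearest to 1 opened peak, by Lrrc4c, and 59 closed ones (-5.26 points, -6.88 to -2.92). These were 5.69% of the closed peaks, beside 4.65% of all autosomal GFP control peaks, and lay by Cntn1, Cntn5, Cntnap2, Cntnap5a, Cntnap5c, Epha6 and Unc5d. The developmental gene list was nearest to 8 opened and 0 closed (3.45 points, 1.72 to 6.66), beside 0.922% of all autosomal Zbt-KD control peaks. The repeat shares and gene group counts of this contrast were taken over all opened and closed peaks and were not repeated above the floor.

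Under chronic stress, Zbt-KD against GFP gave 811 closed against 151 opened peaks, but among peaks at least as wide as the floor 176 closed and 151 opened. The strongest closed peaks were narrow L1 peaks, all below the 6507 bp floor of this contrast. The 1190028D05Rik peak measured 4090 bp and had a fold enrichment of 4.71, the Nup35 peak 5008 bp and 4.27, and the Mctp2 peak 4063 bp and 3.71, the last in an L1Md_A element upstream of a gene for a membrane protein with C2 domains. In the GFP SSDS and ZBT-OE SSDS lists the Nup35 stretch was part of peaks of 499654 and 499627 bp, while in both GFP lists of the knockdown experiment it stood alone, 14.8 kb (GFP control) and 14.4 kb (GFP CSDS) from the nearest peak of the Zbt-KD list of the same stress group. The strongest opened peaks were listed near Cd200 (2.57, 14826 bp), Timm8a1 (2.22, 10987 bp) and Celf2 (2.01, 25750 bp), a regulator of splicing. All 3 had an L1 element at the centre. Opened peaks were upstream of the nearest gene in 54.3% and closed ones in 64.4% of cases (-10.1 points, -18.6 to -1.62), had a LINE at the centre in 36.4% and 27.6% (8.80, 0.888 to 17.3), lay within 100 kb of a TSS in 33.1% and 44.0% (-10.9, -18.7 to -2.37) and had a protein-coding nearest gene in 63.6% and 77.7% (-14.1, -22.5 to -6.26). Olfactory receptor genes were nearest to 9 opened (5.96%) and 8 closed peaks (0.986%), a difference of 4.97 points (2.02 to 9.98). These shares stood beside 4.14% of all autosomal Zbt-KD CSDS and 2.79% of GFP CSDS peaks, so the whole lists differed as well. All shares of this contrast were taken over all opened and closed peaks and were not repeated above the floor.

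Chronic stress within the knockdown, Zbt-KD CSDS against Zbt-KD control, compared lists of similar width, and none of the measures below set opened and closed peaks apart. The differences in upstream share, LINE share, LTR share and share within 100 kb of a TSS were -1.13, 1.87, 1.84 and -6.97 points, and the interval of each included 0. The Cd200 peak was again the strongest opened one; no other list had a peak there. The next were near Gm5458 (2.47, 10297 bp), with a major satellite repeat at its centre, and Prr30 (2.34, 43237 bp). Of the closed peaks the strongest lay near Gm8579 (6.21, 22305 bp), 2010315B03Rik (2.58, 8203 bp) and 2610008E11Rik (2.50, 51996 bp).

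ZBTB7A overexpression set the opened peaks apart by place. The 98 opened peaks had a median distance to a TSS of 33.5 kb and the 162 closed peaks 148 kb. Of the opened peaks 74 (75.5%) lay within 100 kb of a TSS and of the closed peaks 59 (36.4%), a difference of 39.1 points (27.0 to 49.3). Within 20 kb were 40 opened (40.8%) and 14 closed peaks (8.64%), a difference of 32.2 points (21.5 to 42.6). No other contrast had an interval off 0 for the share within 20 kb. Every ZBT-OE SSDS intergenic peak was at least 20269 bp wide. One centred within 20 kb of a TSS therefore always had its edge within 10 kb of it. With the distance limit taken from the edge, no opened peak could be centred within 20 kb, so this difference depends on the width scale. The nearest gene was protein-coding for 85.7% of opened and 66% of closed peaks (19.7 points, 8.93 to 29.1). Predicted genes and clones were nearest to 12 opened (12.2%) and 45 closed peaks (27.8%), a difference of -15.5 points (-24.5 to -5.38). These shares stood beside 18.2% of all autosomal ZBT-OE SSDS and 23.5% of GFP SSDS peaks, so the whole lists differed as well. The opened peaks had a median GC content of 42.3%, the closed ones 39.8% and the ZBT-OE SSDS peaks shared with GFP SSDS 39.4%. These coding, predicted gene and GC values were taken over all opened and closed peaks and were not repeated above the 20269 bp floor.

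Many of these opened peaks reached a gene start. The edge of 49 of the 98 lay within 10 kb of the listed TSS or beyond it, against 11 of the 162 closed (6.79%), and 41 opened and 8 closed peaks held the start of a protein-coding gene. Among peaks shared by the pair of lists the edge was as near in 37.9% of ZBT-OE SSDS and 34.2% of GFP SSDS peaks. When peaks whose edge came within 10 kb of the TSS were left out, 26 of 49 opened peaks (53.1%) and 48 of 151 closed peaks (31.8%) were within 100 kb, and the difference fell to 21.3 points (5.53 to 36.2). In another setting, intergenic peaks of at least 20269 bp, themselves not merged, were searched in the merged and filtered lists described above. The difference was then 35.7 points (21.1 to 48.2), with 84 of 120 opened and 24 of 70 closed peaks within 100 kb.

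The strongest opened peak was centred 15.2 kb upstream of Car13, which encodes a carbonic anhydrase (fold enrichment 3.38, chr3:14611230-14641853), and overlapped no peak in the other 5 lists. At 30624 bp it was wide enough to span the listed Car13 TSS. The next were a peak of 89987 bp centred 250 kb upstream of Epha3, an ephrin receptor (3.27), also in no other list, and one of 36584 bp centred 17.9 kb upstream of Dhx36, a helicase that unwinds G-quadruplexes (3.26), which 3 lists of the knockdown experiment had as well. The Dhx36 peak also spanned the listed TSS of its gene. Other opened peaks centred within 100 kb of a TSS lay near Ube4b (3.21) and Fem1b (2.69), which act in protein ubiquitination, Por (2.62), the electron donor of cytochrome P450 enzymes, Mdh2 (2.38), a mitochondrial malate dehydrogenase, Scd2 (2.13), a fatty acid desaturase, Rgs9 (2.34), a brake on G protein signalling, and the ligand gene Wnt7b (2.43). All of these but the Wnt7b peak spanned the listed TSS. The transcription factor genes Foxj2 (2.03), Foxj1 (1.39), Hey1 (1.38), a Notch target, and Sp1 (1.36) were also nearest to opened peaks within 100 kb, of which only the Foxj1 peak spanned the listed TSS. Of the strongest closed peaks, the one near Zmynd11, a reader of methylated histone H3.3, had a fold enrichment of 5.77 in GFP SSDS and was in no other list. The peak near Cdh3 (P-cadherin) had a fold enrichment of 5.13 in GFP SSDS and 3.38 and 4.25 in the unstressed and stressed GFP lists and 3.26 and 2.91 in the corresponding Zbt-KD lists. The peak near Spry2, an inhibitor of growth factor receptor signalling, had 3.70 in GFP SSDS and 3.93, 3.29, 3.62 and 3.31 in those 4 lists. These 3 closed peaks measured 15718, 11216 and 19107 bp, below the 20269 bp of the narrowest ZBT-OE SSDS peak.

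The lists of the knockdown experiment, which share no sample with the overexpression experiment, held a peak at 29 of the 98 opened peaks (29.6%, 21.5 to 39.3) and at 97 of the 162 closed peaks (59.9%, 52.2 to 67.1). List by list, 12.2% to 17.3% of the opened peaks and 30.2% to 38.9% of the closed peaks were found, beside 61.5% to 68.3% of all ZBT-OE SSDS and 60.4% to 67.1% of all GFP SSDS intergenic peaks. Opening under stress in GFP mice and opening under ZBT-OE met at 12 of the 963 stress-opened (1.25%) and 7 of the 98 ZBT-OE-opened peaks (7.14%), while of the 1012 GFP CSDS peaks that the unstressed GFP list also had, 17 (1.68%) met a ZBT-OE-opened peak. Closing under Zbt-KD in stressed mice and opening under ZBT-OE met at 16 of 811 (1.97%) and 9 of 98 (9.18%), while 13 of the 1164 GFP CSDS peaks shared with Zbt-KD CSDS (1.12%) met one.

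LINE elements were the most frequent repeat at the centre of intergenic peaks. A LINE lay at the centre of 35.5% of GFP control peaks (33.9 to 37.1), 30.1% of GFP CSDS (28.1 to 32.2), 34.2% of Zbt-KD control (30.8 to 37.7), 35.4% of Zbt-KD CSDS (31.8 to 39.2), 30.4% of GFP SSDS (26.9 to 34.2) and 32.1% of ZBT-OE SSDS peaks (28.1 to 36.3). In intronic peaks within the same limits the shares were 23.6%, 26.1%, 27.0%, 28.8%, 22.0% and 12.8%. The intervals of the intergenic and intronic shares did not overlap in the GFP control and ZBT-OE SSDS lists, and overlapped in the other 4. LTR elements lay at the centre of 19.6%, 19.8%, 14.7%, 15.8%, 14.5% and 14.4% of the intergenic peaks, and between 36.4% and 43.0% had no listed repeat there. The L1Md subfamilies, only some of which include copies still able to move, made up 10.2%, 9.06%, 12%, 13.8%, 12.4% and 13.4%. Elements of the IAP family, LTR elements that remain active in mice, were at 60, 43, 12, 12, 7 and 6 centres, and CpG islands at 7, 2, 0, 0, 0 and 1.

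The 31 bases at the peak centre were found more than once in the assembly for 27.9% of GFP control (26.4 to 29.4), 28.0% of GFP CSDS (26.1 to 30.1), 29.3% of Zbt-KD control (26.1 to 32.7), 30.0% of Zbt-KD CSDS (26.6 to 33.7), 25.2% of GFP SSDS (21.9 to 28.7) and 27.6% of ZBT-OE SSDS peaks (23.8 to 31.7), against 20.2% of intergenic genome positions and 15.7% to 19.4% of intronic peaks. All 6 lower bounds were above the 20.2%. For words found 100 times or more the shares were closer, with 9.65% in the GFP control list (8.69 to 10.7) and up to 12.9% in ZBT-OE SSDS (10.2 to 16.1) against 9.67% of intergenic positions, a value inside the intervals of the GFP control and GFP SSDS lists. By bases, 43.9% to 46.0% of the intergenic peaks and 38% of the intergenic genome were masked as repeats.

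**Figure D5:**
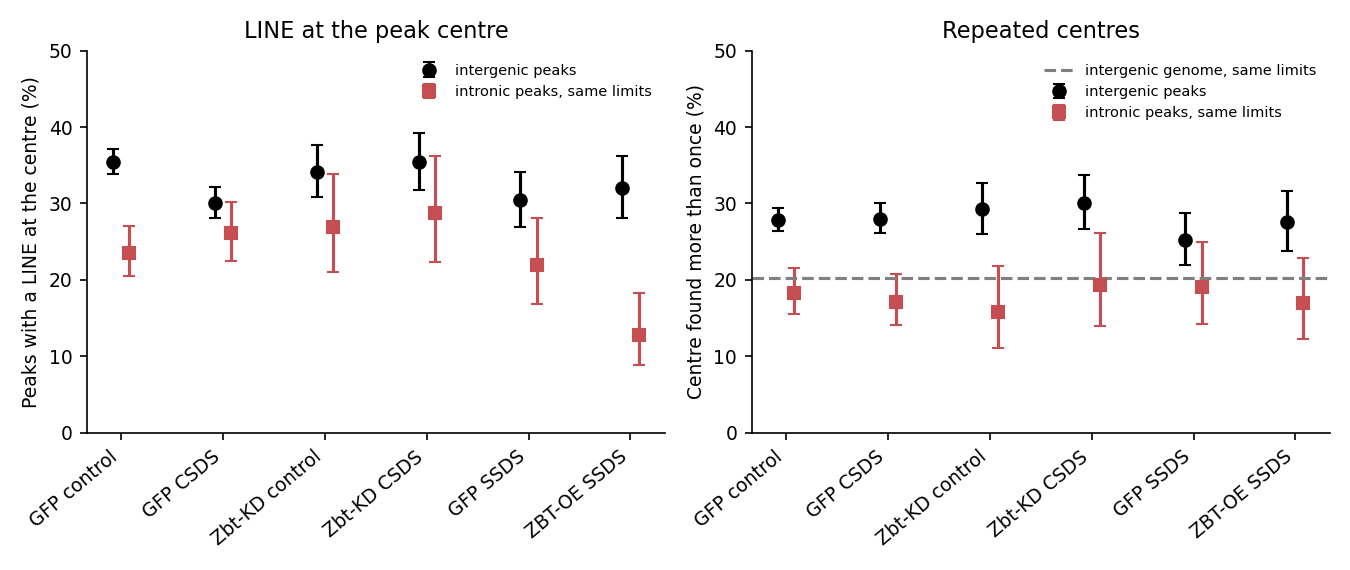
Share of peaks with a LINE at the centre (left) and share whose central 31 bases occur more than once in the assembly (right), in percent with 95% Wilson intervals over peaks, for intergenic peaks (circles) and intronic peaks within the same limits (squares). The dashed line at 20.2% is the share among intergenic genome positions; all 6 circles and their intervals were above it.

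Merging overlapping intergenic peaks of the 6 lists gave 1849 regions. Of these 1058 (57.2%) had an intergenic peak in a single list and covered 14.4 Mb, while 190 (10.3%) had one in all 6 and covered 52.7 Mb, or 38.3% of the bases. The regions of all 6 lists had a median width of 287078 bp. The number of regions with an intergenic peak in that list alone was 526 in the GFP control list, 255 in the GFP CSDS list, 62 and 51 in the unstressed and stressed Zbt-KD lists, 87 in the GFP SSDS list and 77 in the ZBT-OE SSDS list, and their median width rose from 1601 bp in the first to 27991 bp in the last. When any autosomal peak counted and not only intergenic ones, these numbers were 229, 96, 39, 35, 65 and 69.

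The 5 regions of all 6 lists with the highest lowest fold enrichment are given as a description, since that value chose them and fold enrichments are relative to each list's own background. The region near 4930442J19Rik (chr2:151086525-151435801) had fold enrichments of 6.26, 6.71, 5.66, 6.57, 7.21 and 6.96 in the order of lists used above. The region near Pfkp, a phosphofructokinase of glycolysis (chr13:6630820-7130355), had 5.37, 5.66, 5.55, 5.10, 6.57 and 7.14. The region near Myo3a, a myosin of sensory hair cells (chr2:21727525-22216141), had 4.70, 5.17, 5.13, 5.52, 4.54 and 5.06. The region near Mir101c (chr9:2996030-3037864) had 5.03, 4.94, 5.39, 4.99, 4.44 and 5.00, and the one near 1700008P02Rik (chr3:6297645-6738626) 5.91, 5.01, 5.61, 5.17, 4.39 and 4.62. Their share of 31-base words found more than once within the same region was 42.9%, 13.7%, 10.1%, 92.6% and 13.7% in the order of naming. Copies elsewhere in the assembly were not counted for this share. Over the 162 regions of all 6 lists that were at least 100 kb wide this share ran from 0.886% to 81.3% with a median of 8.09%, and 59 were above 10%; the highest were near Synb (81.3%) and Gpm6a (72.3%), a neuronal membrane glycoprotein gene.

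Receptor and adhesion families differed in how much of the DNA around them was covered. Of the intergenic positions nearest to an olfactory receptor gene, 11.4% to 15.3% were inside intergenic peaks in the 6 lists, against 4.96% to 6.14% of all intergenic positions. For zinc finger genes the range was 7.11% to 9.36%, for vomeronasal receptors 2.88% to 7.30%, and for neural adhesion and guidance genes 1.03% to 3.71%. Olfactory receptor genes were nearest to 101, 41, 33, 30, 19 and 16 peaks, vomeronasal receptor genes to 89, 45, 11, 14, 10 and 11 and zinc finger genes to 60, 51, 12, 14, 13 and 8. Ion channel and neurotransmitter receptor genes had 54, 26, 14, 9, 17 and 7, among them peaks near Kcnj3, a potassium channel gene, and Grik2, a kainate receptor gene. Solute carrier genes had 52, 30, 8, 6, 8 and 4, immune gene families 69, 28, 19, 15, 7 and 6, and cadherins and protocadherins 9, 6, 4, 2, 5 and 3. Near the imprinted Snord116 to Ube3a stretch of chromosome 7, Snhg14, the host RNA of that locus, was the nearest gene of 8, 3, 6, 1, 2 and 1 peaks.

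Marker genes of the labelled cell type were not among the nearest genes. None of 10 astrocyte markers was nearest to an intergenic peak in any list, and only Slc1a2 and Atp1b2 were nearest to any autosomal peak, both in the ZBT-OE SSDS list. Of 10 markers each for 4 other cell types, the neuronal gene Map2 was nearest to intergenic peaks in 4 lists, with 5 in GFP CSDS and 1 each in Zbt-KD control, GFP SSDS and ZBT-OE SSDS, and the microglial gene Siglech in 3 lists, with 5 in GFP control and 1 each in GFP SSDS and ZBT-OE SSDS. No oligodendrocyte or endothelial marker was. Peaks at distance from genes are a poor test of cell type, and the makeup of the samples was not tested with them. Of 16 genes the study singles out, only C4b, of the complement system, was nearest to an intergenic peak. That peak, in the ZBT-OE SSDS list (chr17:34743889-34780374), was 36486 bp wide and centred 18.2 kb upstream, so its edge reached the listed C4b TSS. Its fold enrichment was 1.51, below the lower quartile of 1.74 of the intergenic peaks of that list.

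At the limits of the definition, the intergenic peak nearest to the lower distance limit was centred at 10010 bp from the TSS of A930006K02Rik, in the ZBT-OE SSDS list with a fold enrichment of 2.61, and the first outside it at -9974 bp (negative is upstream) from Ghrhr, in GFP CSDS with 1.86. At the upper limit they were at -499979 bp from Rgmb with 1.93 and at -500104 bp from Tyrp1 with 1.66, both in GFP control. The widest peak inside measured 499654 bp, near Nup35 (3.72), and the first outside 500188 bp, near A530072M11Rik (2.36), both in GFP SSDS.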

How the data were processed

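ATAC-seq peaks were taken from 6 lists, 1 for each group. Alignment by the authors used HISAT2 and mm10; reads with a single place were kept, SAMtools took out duplicates, and MACS 2 peaks passing an FDR limit were annotated with the diffReps region tool; how the 5 or 6 samples of a group were combined for calling is not stated in the sources used here. As deposited, each peak carries a fold enrichment, the ratio of its signal to the local background that the peak caller used, and a q-value from the same caller on a linear scale. The annotation and distance to the nearest TSS are also the authors'. Read depth is not given in the sources used here and is unknown, so a peak missing from a list may reflect depth.

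From these lists the number, width, side, distance and nearest gene were computed with Python 3.11.15, numpy 2.4.6, pandas 2.3.3 and scipy 1.17.1, and figures were drawn with matplotlib 3.10.9. A peak counted as present in another list when 1 bp or more of it lay in a peak there. With 1 pooled list per group there is no replicate spread and no test; the 95% intervals (Wilson for shares, Newcombe for differences, exact binomial for ratios of numbers) cover counting error over peaks, and neighbouring peaks are not independent. The overlap steps were tested on simulated data, where 3 known shares were recovered with 1000 peaks per list. Sequence, repeat masking, counts of 31-base words and the census of intergenic positions (outside curated RefSeq transcripts and 1000 bp around them) came from GRCm38.p6. 

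The definition of the intergenic peaks, the 12 gene lists and the rules for naming were chosen with earlier results of these data known. Named were the 3 opened and 3 closed peaks of highest fold enrichment per contrast, the 5 regions of all 6 lists with the highest lowest fold enrichment, the 10 genes with the most peaks, and genes the study names. Other genes named with values, among them those near opened ZBT-OE SSDS peaks and those leading a gene list, were chosen after their values were seen. Alternatives were the stronger 50% of peaks, a width limit of 100000 bp, a distance limit taken from the peak edge, an overlap of 50% of the shorter peak, and merging of all lists at 1 width scale; a width floor set by the searched list was added after the data were seen. 1 gene is not reported here.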

Additional observations from a re-analysis of the deposited data

How the results depend on the processing

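No paired analysis was possible because each group has 1 pooled list, so the replicate numbers of the labels belong to no column; for the same reason no replicate could be left out in turn. Of 88 recomputed values for 21 results under 5 settings, 41 stayed the same, 43 moved and 4 changed side; the cause was not tested beyond what each setting removes. An overlap of 50% of the shorter peak moved none of its 10 results. In what follows, a pair of shares gives first the share of reference peaks also in the treated list and then the share of treated peaks also in the reference list, and contrasts run in the order of the report. With the stronger 50% of peaks the shares were 79.3% and 67.3%, 74.7% and 88.7%, 71.4% and 93.7%, 88.7% and 91.5%, and 92.3% and 89.6%. With widths below 100000 bp the first 3 number ratios were 0.561, 0.165 and 0.239, and the shares 69.2% and 45.9%, 67.1% and 56.6%, 54.3% and 65.2%, 64.9% and 59.95%, and 58.9% and 65.2%. With the distance limit taken from the peak edge, the treated share was 48.3% for GFP CSDS against GFP control. For Zbt-KD control against GFP control the ratio was then 0.178 and the treated share 62.3%. For Zbt-KD CSDS against GFP CSDS the ratio was 0.278 and the shares 56.3% and 71.7%, for Zbt-KD CSDS against Zbt-KD control the shares were 70.4% and 67.9%, and for ZBT-OE SSDS against GFP SSDS the ratio was 0.658 and the reference share 66.7%. At 1 width scale the number ratio changed side to 1.14, 1.29 and 1.07 in the first 3 contrasts and to 1.14 for ZBT-OE SSDS against GFP SSDS, and the shares were 94.9% and 79.9%, 93.8% and 77.5%, 86.9% and 87.5%, 84.2% and 83.1%, and 87.4% and 75.9%. Of the alternatives chosen after seeing the data, the edge rule moved the difference between opened and closed ZBT-OE SSDS peaks within 100 kb of a TSS to 21.3 points, and searching only peaks as wide as the other list's narrowest peak moved the reference share to 75.2%, 86.5% and 76.4% in the first 3 contrasts and to 85.5% for ZBT-OE SSDS against GFP SSDS. Depth per list is unknown and limits every statement on an absent peak.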

Other observations

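Intergenic peaks on the X chromosome within the same distance and width limits, not counted in the report, numbered 443 in the GFP control list and 385 in GFP CSDS. The unstressed and stressed Zbt-KD lists held 126 and 99, GFP SSDS 99 and ZBT-OE SSDS 88. A LINE lay at the centre of 49.9% of the X peaks in GFP control, 43.9% in GFP CSDS, 44.4% and 46.5% in the Zbt-KD lists, 45.5% in GFP SSDS and 51.1% in ZBT-OE SSDS, above the autosomal shares of 30.1% to 35.5%. The Y chromosome held between 12 and 39 such peaks per list.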
